A study of Mus musculus with 16 samples.

Results

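The 10 genes described here encode acute-phase proteins, the plasma proteins whose output by the liver changes within hours of inflammation or injury. They were the serum amyloid A genes Saa1, Saa2, Saa3 and Saa4, the haptoglobin and hemopexin genes Hp and Hpx, the serum amyloid P gene Apcs, the inter-alpha-trypsin inhibitor heavy chain genes Itih3 and Itih4, and the protease inhibitor gene Serpina3n. Members were the gene probes whose name on the array was 1 of these symbols, whatever their values. All 10 passed the filter on dim probes and are part of the 24409 genes tested.

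Hepatocytes make most acute-phase proteins and secrete them into plasma. Interleukin 6 acts through a receptor that shares gp130 (Il6st) and through STAT3, while interleukin 1 and tumor necrosis factor act through NF-kappa B, and C/EBP factors join both at the promoters. SAA1 and SAA2 bind high-density lipoprotein and are the precursors of amyloid A fibrils. Lipocalin 2, the product of Lcn2, is itself an acute-phase protein that binds iron-loaded siderophores.

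The livers were those of male BALB/c mice of 2 genotypes, wild type (WT) and Lcn2 knockout (Lcn2-/-). The mice were 6 to 8 weeks old when treatment began. For 4 weeks the mice were given intraperitoneal CCl4, a solvent that hepatocytes turn into a toxic radical, in 2 doses of 0.5 ml/kg each week. Tissue was collected 48 h past the final dose, so any earlier response to an injection was not sampled. Control mice received corn oil, the vehicle of CCl4. Arrays numbered 4 for WT control, 5 for WT CCl4, 3 for Lcn2-/- control and 4 for Lcn2-/- CCl4. The knockout was first made on a mixed 129/Ola and C57BL/6 background and then crossed to BALB/c, and it was not limited to hepatocytes or to another cell type. The labels number the replicates without saying that each was a separate animal, so p-values measure the spread between these samples.

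Each value is a quantile-normalized signal of 1 probe on the log2 scale, and a probe's level was not set against another probe's. Between 51.6% and 60.9% of gene spots were well above background, 0 gene spots were saturated, and the highest normalized value of any probe was 19.22. All 8 hepatocyte markers examined, among them Alb, the albumin gene, were well above background on 16 arrays, and their summed linear signal ranged from 2070000 to 2710000. In whole liver, fewer cells of a type and less RNA per cell cannot be told apart. All 7 control arrays and WT CCl4 1 lay on slide 1, and the other CCl4 arrays on slide 2.

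Lcn2 itself was read first because it checks the genotype labels. On its probe (chromosome 2, 32240199 to 32240258, mm9) the 4 WT control arrays measured 13.79, 14.58, 17.57 and 14.69, and the 5 WT CCl4 arrays 14.38, 16.48, 15.07, 14.22 and 14.27. In Lcn2-/- livers it measured 10.47, 11.05 and 11.53 in controls and 12.25, 10.61, 11.59 and 11.80 after CCl4. Every Lcn2-/- array lay below every WT array, and WT control 3 was the highest of all. The probe was still well above background on all 7 Lcn2-/- arrays. Whether it lies inside the deleted part is not given in the sources used here, so it checks the labels only by this gap.

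Saa1 and Saa2, the inducible serum amyloid A genes of hepatocytes, were lower after CCl4 in WT livers, and they were the only members past the test in any of the 5 contrasts. The Saa1 probe (chromosome 7, 53996070 to 53996129, mm9, from the files) measured 18.80, 18.93, 18.85 and 17.64 on the 4 WT control arrays. After CCl4 the WT arrays 1 to 4 measured 16.49, 17.56, 16.98 and 15.68. The spot on WT CCl4 5 was marked as an outlier by the image software and left out, so Saa1 was fitted on 15 arrays. The WT control and WT CCl4 arrays did not overlap.

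In Lcn2-/- controls, Saa1 measured 16.77 and 16.45 on arrays 1 and 2 but 18.82 on array 3, which stood level with the brightest WT controls. After CCl4 the Lcn2-/- arrays measured 15.75, 15.37, 15.74 and 16.64. The Saa1 level in Lcn2-/- controls 1 and 2 was thus inside the range of the WT CCl4 arrays, and the groups of Lcn2-/- arrays overlapped.

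Saa2 followed Saa1 array by array. Its probe (chromosome 7, 54009622 to 54009681, mm9) measured 18.37, 18.44, 18.46 and 17.48 in WT controls and 16.34, 17.67, 17.26, 15.72 and 16.52 in WT CCl4. Lcn2-/- control arrays measured 16.85, 16.44 and 18.36, and Lcn2-/- CCl4 arrays 15.74, 15.19, 15.86 and 16.42. WT control 4, the lowest of its group, overlapped WT CCl4 2, the highest of its group, while the Lcn2-/- groups lay apart by a small gap.

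**Figure D1:**
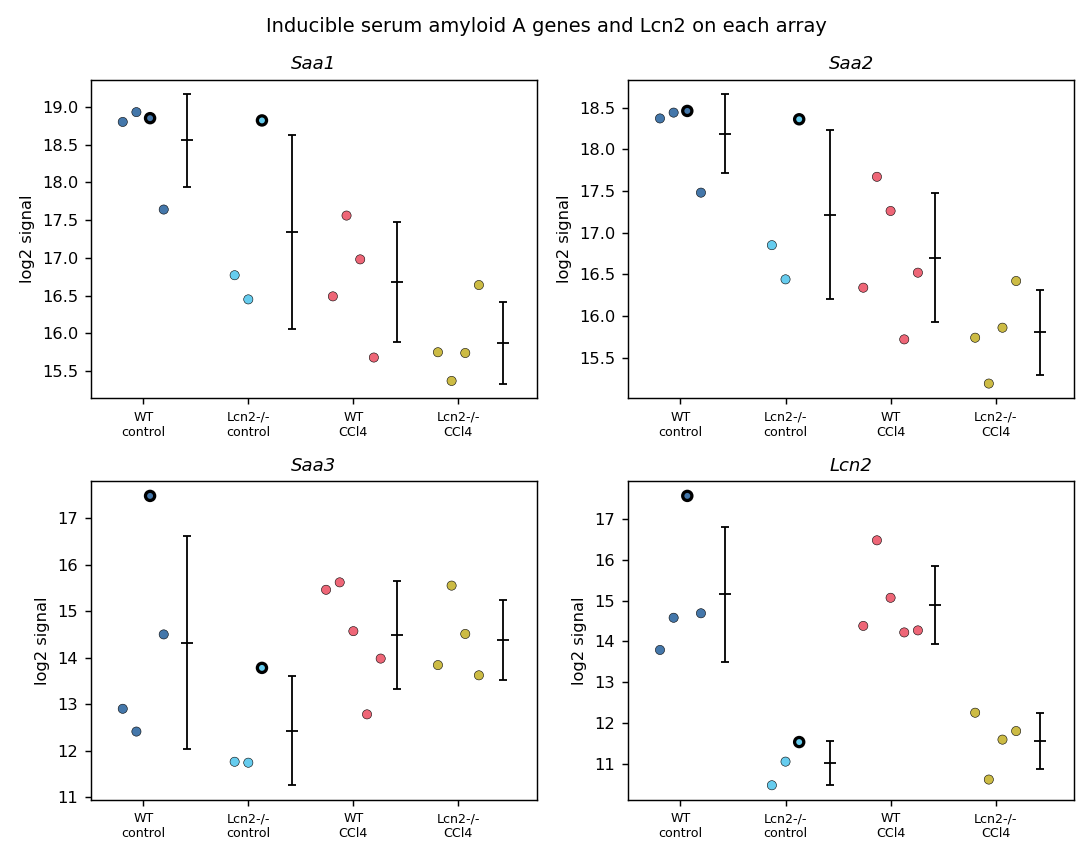
Log2 signal of Saa1, Saa2, Saa3 and Lcn2 on each array (points, in replicate order, Saa1 with 15 arrays), with the mean and SD of each group as a bar to its right and heavy rings on WT control 3 and Lcn2-/- control 3. Saa1 and Saa2 are high on the 4 WT controls and on Lcn2-/- control 3 (18.82 and 18.36), and Saa3 and Lcn2 peak on WT control 3 at 17.48 and 17.57.

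Deviations from the group means of Saa1 and Saa2 had r = 0.97 over 15 arrays, the highest between any pair of members, and the probes of such close relatives may share signal, which was not tested. The 250 bases before the start of each Saa gene are shown for comparison within the family (RefSeq, GRCm38.p6, gene strand, 5′ to 3′). The windows are chr7:46742981-46743230 on the minus strand for Saa1, chr7:46751583-46751832 on the plus strand for Saa2, chr7:46715677-46715926 on the minus strand for Saa3 and chr7:46732604-46732853 on the minus strand for Saa4. Capitals mark matches to the C/EBP motif TTNNGNAA, searched on both strands.
Saa1: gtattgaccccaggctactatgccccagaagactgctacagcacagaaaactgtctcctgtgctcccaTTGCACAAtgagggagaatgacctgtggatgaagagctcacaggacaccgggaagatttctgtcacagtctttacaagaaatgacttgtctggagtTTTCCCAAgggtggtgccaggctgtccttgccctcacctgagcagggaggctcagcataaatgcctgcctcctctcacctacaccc
Saa2: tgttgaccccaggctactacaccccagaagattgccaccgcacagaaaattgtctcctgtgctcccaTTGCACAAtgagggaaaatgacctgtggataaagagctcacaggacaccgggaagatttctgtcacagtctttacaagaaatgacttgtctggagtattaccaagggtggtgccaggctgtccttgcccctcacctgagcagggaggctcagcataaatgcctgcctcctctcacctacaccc
Saa3: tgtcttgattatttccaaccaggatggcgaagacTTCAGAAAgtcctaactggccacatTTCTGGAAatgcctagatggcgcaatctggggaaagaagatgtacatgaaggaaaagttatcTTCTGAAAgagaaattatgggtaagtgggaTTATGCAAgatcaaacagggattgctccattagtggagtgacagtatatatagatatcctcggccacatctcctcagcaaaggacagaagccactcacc
Saa4: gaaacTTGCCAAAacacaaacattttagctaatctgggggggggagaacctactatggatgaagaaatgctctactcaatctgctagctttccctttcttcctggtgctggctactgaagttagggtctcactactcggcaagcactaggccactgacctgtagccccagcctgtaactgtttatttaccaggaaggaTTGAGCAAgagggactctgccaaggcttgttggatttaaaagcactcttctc

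The Saa1 and Saa2 windows were identical at 238 of 251 aligned columns (94.8%), and the genes point away from each other. The other 5 pairs within the family were identical at 42.6% to 48.9% of columns. Saa1 and Saa2 both held the C/EBP match TTGCACAA, which begins 182 and 183 bases before their starts, and Saa3 held 4 matches. Of the 9 members with a promoter entry (none for Hp), 6 held a C/EBP match, namely the 4 Saa genes, Hpx and Serpina3n, against 36.8% of all 32851 windows of this length. The STAT motif TTCNNNGAA was found in Apcs and Itih4, 2 of 9, against 7.02% of all windows. Neither the kappa B motif (7.25% of windows) nor TATAAA (12.4%) was found in a member's window. No window held matches to more than 1 of the motifs, so none overlapped. A match is a description of letters and not of a bound site.

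The first comparison asks how CCl4 changed these genes in WT livers. Saa1 fell by 1.88 (SE 0.53, 95% interval -3.02 to -0.74, limma adjusted p 0.0273), a 3.68-fold lower signal. WT controls 1 to 3 lay close to the highest value on the scale, and whether the signal could still rise there was not tested. The group means were 18.56 ± 0.61 (SD, n = 4) in control and 16.68 ± 0.80 (SD, n = 4) after CCl4, and all 4 measured CCl4 arrays lay below the control mean. The exact two-sided permutation p was 0.0286, the smallest that 70 arrangements allow. Saa2 fell by 1.48 (SE 0.44, 95% interval -2.41 to -0.55, limma adjusted p 0.0313), a 2.79-fold lower signal, with means of 18.19 ± 0.47 (SD, n = 4) and 16.70 ± 0.77 (SD, n = 5) and an exact permutation p of 0.0317 over 126 arrangements. Thus 2 of 10 members were called in WT, where 16.8% of all genes tested were called in either direction, a share close to that of the members. The median difference of the members was -0.023, against -0.031 over all genes tested.

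Both calls rested on few arrays. Saa1 no longer passed without WT control 1 (limma adjusted p 0.0778), WT control 2 (0.0805), WT CCl4 1 (0.0624) or WT CCl4 4 (0.0777). Saa2 no longer passed without WT control 1 (0.0884), WT control 2 (0.0898), WT control 3 (0.0593), WT CCl4 1 (0.0675), WT CCl4 4 (0.0719) or WT CCl4 5 (0.0604). With slide as a block, where WT CCl4 1 alone parts treatment from slide, Saa1 fell by 2.07 (limma adjusted p 0.2) and Saa2 fell by 1.84 (0.180), and slide 1 alone gave the same differences with adjusted p 0.244 and 0.202. Neither gene changed direction in any of the 29 alternatives run for this comparison, and without both control arrays numbered 3 both still passed (limma adjusted p 0.0154 and 0.0290).

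**Figure D2:**
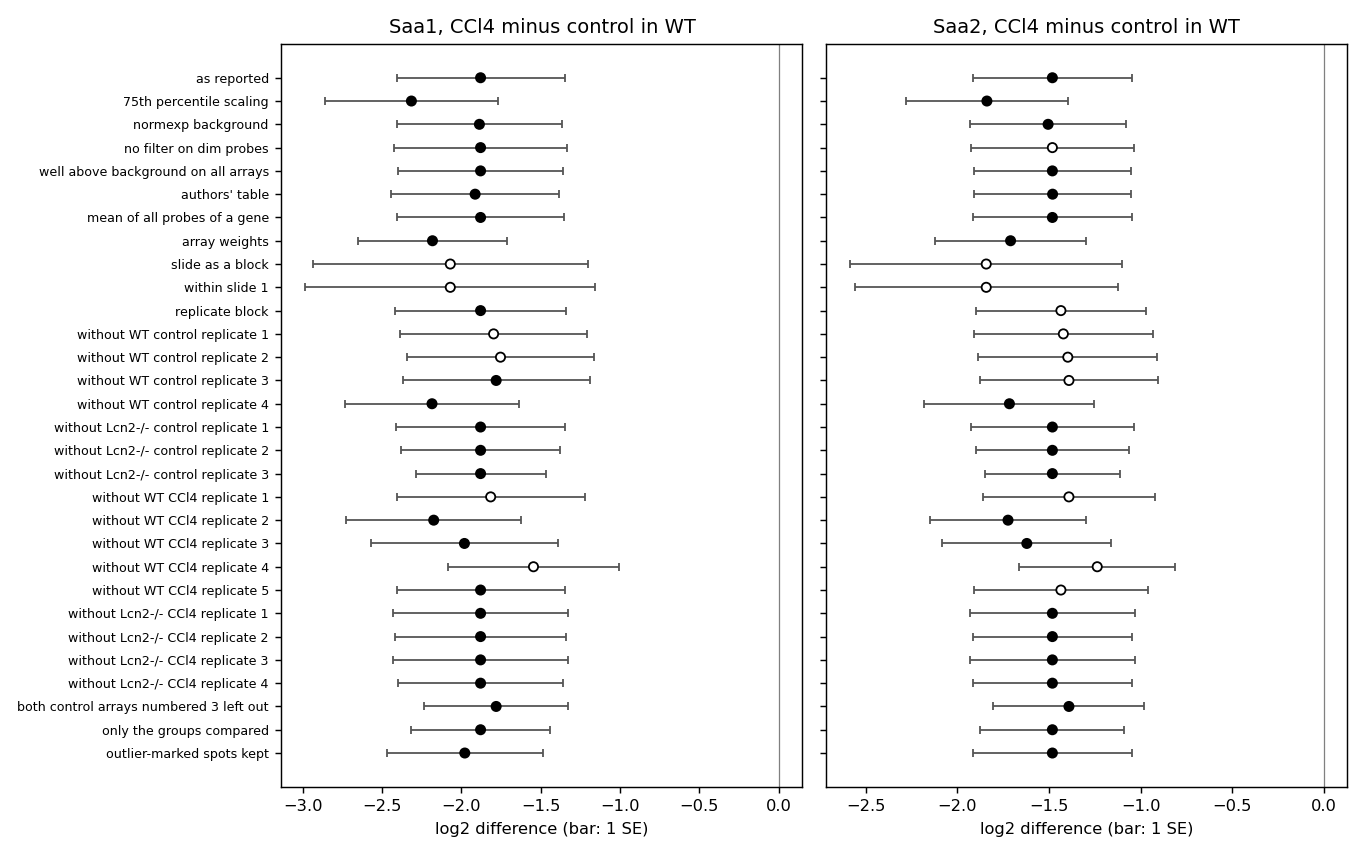
Log2 difference between CCl4 and control in WT (horizontal axis, bar 1 SE) for Saa1 and Saa2 as reported and under each of 29 alternatives (rows), filled where the limma adjusted p was under 0.05. Saa1 ranges from -2.32 to -1.55 and Saa2 from -1.84 to -1.24, with every point below 0.

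In Lcn2-/- livers, the response to CCl4 passed the test for 0 of 10 members with limma, where 12.2% of all genes tested were called. An unadjusted p under 0.05 was met by 3 of 10 members and by 27% of all genes, a share close to that of the members. Saa1 measured a difference of -1.47 (SE 0.57, limma adjusted p 0.114) between 17.35 ± 1.29 (SD, n = 3) and 15.88 ± 0.54 (SD, n = 4). Saa2 measured -1.41 (SE 0.50, limma adjusted p 0.0796) between 17.22 ± 1.01 (SD, n = 3) and 15.80 ± 0.50 (SD, n = 4). Both differences were negative, as in WT, and the exact permutation p values were 0.0857 and 0.0571, where 35 arrangements allow none below 0.0286. Here slide and treatment cannot be told apart within the genotype, because the Lcn2-/- controls lay on slide 1 and the Lcn2-/- CCl4 arrays on slide 2. Without Lcn2-/- control 3 the response was -0.74 for Saa1 (limma adjusted p 0.372) and -0.84 for Saa2 (0.277).

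Whether the response of Saa1 and Saa2 differed between genotypes was tested as an interaction, and it was not detectable. The Lcn2-/- response minus the WT response was 0.41 for Saa1 (SE 0.78, 95% interval -1.27 to 2.08) and 0.07 for Saa2 (SE 0.66, 95% interval -1.35 to 1.48). The upper bounds of these intervals were as large as the size of the WT response. Leaving out 1 array moved the Saa1 value between -0.04, without Lcn2-/- control 2, and 1.14, without Lcn2-/- control 3, and the Saa2 value between -0.32 and 0.64 for the same arrays, and neither passed in any of these fits.

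Lcn2-/- livers had the lower mean of Saa1 and Saa2 with and without CCl4, but no difference between genotypes passed the test. In controls the Lcn2-/- minus WT difference was -1.21 for Saa1 (SE 0.57, limma adjusted p 0.622) and -0.97 for Saa2 (SE 0.50, limma adjusted p 0.675). After CCl4 it was -0.80 for Saa1 (SE 0.53, limma adjusted p 0.527) and -0.90 for Saa2 (SE 0.44, limma adjusted p 0.38). Lcn2-/- control 3 stood apart in its group, and on Saa1 it lay 2.21 above the mean of Lcn2-/- controls 1 and 2. Without it the difference in controls was -1.94 for Saa1 (limma adjusted p 0.151) and -1.54 for Saa2 (0.238), and without Lcn2-/- control 2 it was -0.76 and -0.58. Same-numbered control arrays, which deviated together, differed by -2.03, -2.48 and -0.03 for Saa1 and by -1.51, -2.0 and -0.10 for Saa2 in numbers 1 to 3. All of these were negative, and with the replicate number as a block over the control arrays alone, a fit added after seeing the data, the difference was -1.51 for Saa1 (SE 0.57, limma adjusted p 0.33) and -1.20 for Saa2 (SE 0.43, limma adjusted p 0.32). In that fit limma called 0 of 24409 genes, with 3967 at an unadjusted p under 0.05, 0 members among them. With array weights, which count spread-out arrays less, the Saa1 difference in controls was -1.70 (limma adjusted p 0.0476), in a fit that called 5.21% of all genes.

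Saa3, a family member that macrophages and other cells also make, had the largest SD of the members in every group but Lcn2-/- control, where that of Saa1 was larger. Its probe (chromosome 7, 53970389 to 53970448, mm9) measured 12.90, 12.41, 17.48 and 14.50 in WT controls and 15.46, 15.62, 14.57, 12.78 and 13.98 in WT CCl4. Lcn2-/- controls measured 11.76, 11.74 and 13.78, and Lcn2-/- CCl4 arrays 13.84, 15.55, 14.51 and 13.62. WT control 3 exceeded all other arrays, and Lcn2-/- controls 1 and 2 were the lowest.

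The WT response of Saa3 was 0.16 (SE 0.91, 95% interval -1.79 to 2.11, limma adjusted p 0.932), with a group SD of 2.28 in WT controls. Its size and sign rested on single arrays, from -0.48 without WT control 2 to 1.21 without WT control 3 (limma adjusted p 0.266), and with slide as a block it was 1.14 (0.718). In Lcn2-/- livers it was 1.95 (SE 1.04, limma adjusted p 0.245), with all 4 CCl4 arrays above the control mean, and the groups overlapped only through Lcn2-/- control 3. Without Lcn2-/- control 3 the Lcn2-/- response of Saa3 was 2.63 and did not pass (limma adjusted p 0.157), while without both control arrays numbered 3 it was the same 2.63 and passed (0.0411), with 15.1% of all genes called in that fit. Over all alternatives the Lcn2-/- response of Saa3 ranged from 1.56 to 3.18. It also passed with array weights (limma adjusted p 0.0345), where 28.5% of all genes were called. The interaction was 1.79 (SE 1.38, 95% interval -1.17 to 4.75) and did not pass, and without WT control 3 it was 0.74. Saa1 and Saa2 thus measured lower after CCl4 in Lcn2-/- livers where Saa3 measured higher, although none of these passed as reported.

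Saa4, the constitutive member of the family, showed no difference past the test. Its probe (chromosome 7, 53983662 to 53983721, mm9) was lowest on WT CCl4 1 and highest, at 15.81, on WT CCl4 5, the WT response was -0.17 (SE 0.17, limma adjusted p 0.55), and the Lcn2-/- response was -0.16 (SE 0.20, limma adjusted p 0.638). The 95% interval in WT was -0.54 to 0.20. With slide as a block the Saa4 difference was -0.51 in WT livers (limma adjusted p 0.314), and without WT CCl4 1 or WT control 3 it was -0.08 or -0.09. Leaving out 1 array moved the Lcn2-/- response of Saa4 between -0.26 and -0.003.

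Hp, whose product binds free hemoglobin, and Hpx, whose product binds free heme, were bright and level. The Hp probe (chromosome 8, 112099045 to 112099104, mm9) lay between 18.71 and 18.95 over the 16 arrays. The Hpx probe (chromosome 7, 112740304 to 112740363, mm9) lay between 18.81 and 19.04. On both, the 4 groups overlapped. The WT response was -0.03 for Hp (SE 0.08, 95% interval -0.19 to 0.14) and -0.02 for Hpx (SE 0.08, 95% interval -0.19 to 0.16). The Lcn2-/- response was -0.09 for Hp (SE 0.09, limma adjusted p 0.526) and -0.04 for Hpx (SE 0.09, limma adjusted p 0.838). These signals lie close to the highest value on the scale, and whether brighter RNA levels would still have raised the signal was not tested.

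The level reading of the brightest members depends on the scaling. With each array scaled to its 75th percentile in place of quantile normalization, the median of all genes tested moved to -0.16 in WT, and Hp fell by 0.52 (limma adjusted p 0.0192), Hpx fell by 0.53 (0.0311) and Itih4 fell by 0.51 (0.0329) in the WT response. In the Lcn2-/- response that scaling gave -0.53 for Hp (limma adjusted p 0.0425), -0.47 for Hpx (0.102) and -0.46 for Itih4 (0.103), and it also called Saa2 (-1.64, 0.0427) and Apcs (-0.95, 0.0414). The WT response of Itih3 turned to -0.39 (limma adjusted p 0.0587) and that of Serpina3n to -0.18 (0.474), and the Lcn2-/- response of Itih3 turned to -0.22 (0.403). Under this scaling 21.1% of all genes were called in WT and 13.3% in Lcn2-/- livers. Relative to that median the differences were smaller than these values.

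Apcs, which encodes serum amyloid P, the main acute-phase pentraxin of the mouse, measured lower after CCl4 in both genotypes without passing the test. Its probe (chromosome 1, 174824959 to 174825018, mm9) measured 15.84, 15.79, 16.52 and 16.32 in WT controls and 15.92, 15.43, 15.20, 15.66 and 15.87 in WT CCl4. Lcn2-/- controls measured 15.99, 15.47 and 16.62, and Lcn2-/- CCl4 arrays 14.74, 15.54, 15.37 and 15.26. Control 3 was the highest of its group in both genotypes. The response was -0.50 in WT (SE 0.25, limma adjusted p 0.186) and -0.80 in Lcn2-/- (SE 0.28, limma adjusted p 0.0798), with 5 of 5 and 4 of 4 CCl4 arrays below the control mean. Without Lcn2-/- control 2 the Apcs response in Lcn2-/- was -1.08 (limma adjusted p 0.0394), and without Lcn2-/- control 3 it was -0.50 (0.269). With slide as a block the Apcs response in WT livers was -0.20 (limma adjusted p 0.823), and that of Lcn2-/- livers -0.42 (0.729).

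Itih3 and Itih4, heavy chain genes whose products bind hyaluronan or serve as protease substrates in plasma, showed no difference past the test. The Itih3 probe (chromosome 14, 31721835 to 31721894, mm9) lay between 17.78 and 18.36, with a response of 0.10 in WT (SE 0.11, limma adjusted p 0.587) and 0.18 in Lcn2-/- (SE 0.13, limma adjusted p 0.382). Its lowest arrays were Lcn2-/- controls 1 and 2, at 17.81 and 17.78, while control 3 of that group measured 18.26. Leaving out 1 array moved the Lcn2-/- response of Itih3 between 0.10 and 0.34, and none of these passed. The tested Itih4 probe (chromosome 14, 31714970 to 31715029, mm9) lay between 18.52 and 18.81, and its WT response was 0.00084 (SE 0.083). A dimmer Itih4 probe (chromosome 14, 31711222 to 31711281) measured a WT response of 0.16 (SE 0.22, limma adjusted p 0.68 over 33099 probes).

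Serpina3n, a secreted serine protease inhibitor, was the member with the widest spread among Lcn2-/- CCl4 arrays apart from the Saa genes. On its probe (chromosome 12, 105651918 to 105651977, mm9) those 4 arrays measured 16.20, 16.05, 15.96 and 15.16, against 15.43, 15.44 and 15.57 in Lcn2-/- controls. WT arrays lay between 15.34 and 15.78 in controls and between 15.44 and 15.88 after CCl4. The response was 0.04 in WT (SE 0.18) and 0.36 in Lcn2-/- (SE 0.21, limma adjusted p 0.295). Without Lcn2-/- CCl4 4, which lay below the 3 controls, the Serpina3n response in Lcn2-/- was 0.59 (limma adjusted p 0.0233), and without Lcn2-/- CCl4 1 it was 0.24 (0.525).

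**Figure D3:**
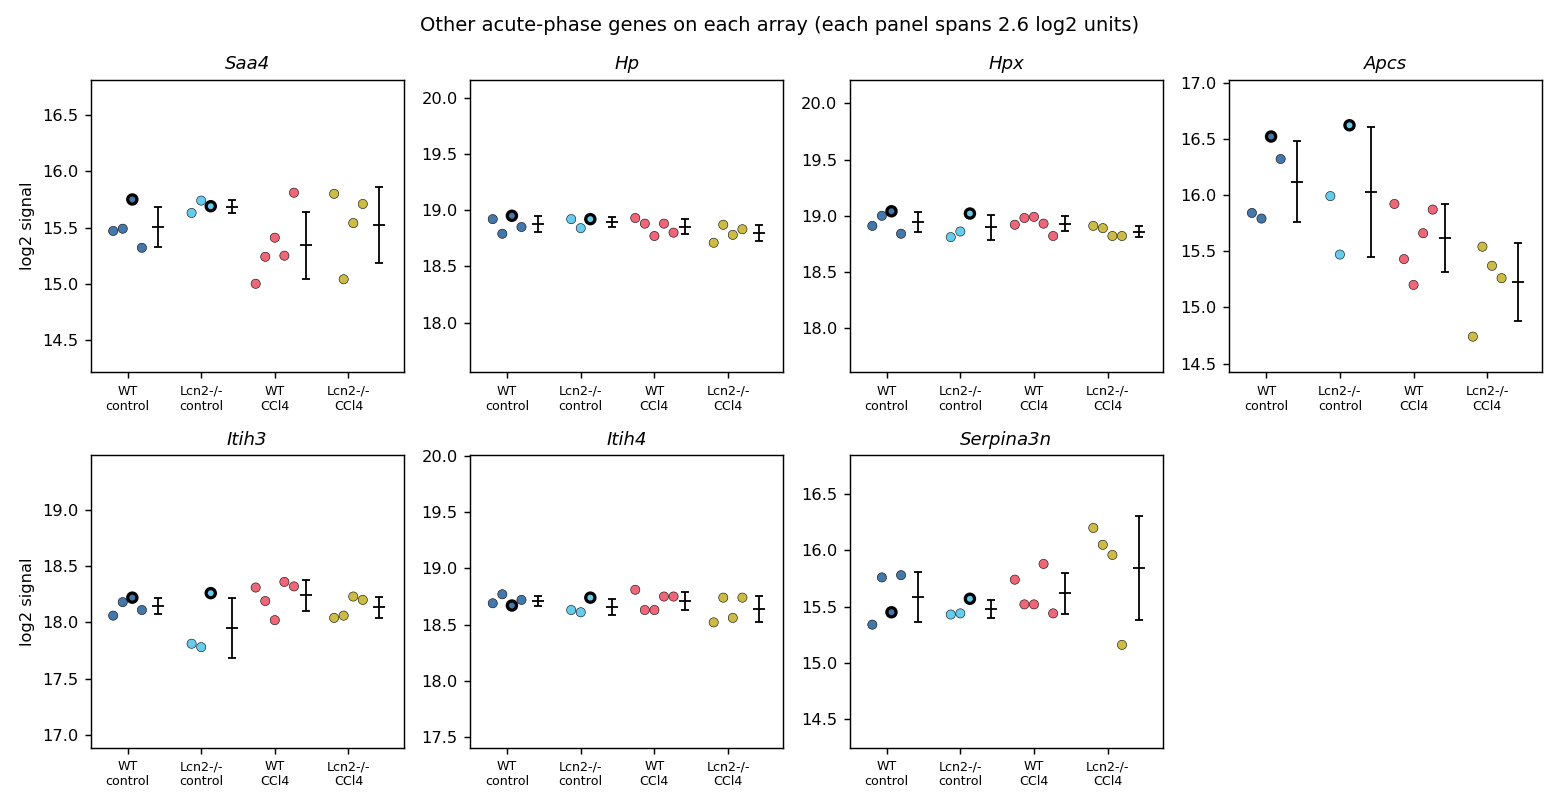
Log2 signal of Saa4, Hp, Hpx, Apcs, Itih3, Itih4 and Serpina3n on each of 16 arrays (points, with the mean and SD of each group to the right and heavy rings on WT control 3 and Lcn2-/- control 3). Hp, Hpx and Itih4 span at most 0.29 log2 units, while Apcs sits lower in the CCl4 groups and Serpina3n spreads from 15.16 to 16.20 in Lcn2-/- CCl4.

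Loss of Lcn2 was compared with WT after CCl4 and in controls, and 0 of 10 members passed in either with limma. Over all genes tested, 0.635% were called after CCl4 and 0.528% in controls, and 0 members had an unadjusted p under 0.05 in either, against 13.7% and 8.29% of all genes. The member medians were -0.090 after CCl4 and -0.096 in controls, and 8 of 10 members measured lower in Lcn2-/- in each comparison. That tally depends on the scaling, and with 75th percentile scaling it was 3 of 10 after CCl4 and 6 of 10 in controls. After CCl4 the difference between Lcn2-/- and WT was -0.10 for Saa3 (SE 0.91), -0.39 for Apcs (SE 0.25) and 0.22 for Serpina3n (SE 0.18). Leaving out 1 array moved these between -0.53 and 0.18 for Saa3, -0.49 and -0.22 for Apcs, and 0.10 and 0.45 for Serpina3n. In controls the difference was -1.89 for Saa3 (SE 1.04, 95% interval -4.12 to 0.33), -0.09 for Apcs (SE 0.28) and -0.19 for Itih3 (SE 0.13). Leaving out 1 array moved the control difference between -0.38 and 0.19 for Apcs and between -0.35 and -0.10 for Itih3. The interval for Saa3 in controls was the widest of the members, and WT control 3 and Lcn2-/- control 3 each stood above the rest of their group. Without WT control 3 the Saa3 difference in controls was -0.84, and same-numbered arrays differed by -1.14, -0.68 and -3.69. With the block over control arrays alone it was -1.84 (SE 0.71, limma adjusted p 0.335). The interaction called 0 of 10 members, and 0 at an unadjusted p under 0.05, where 0.0533% of all genes tested were called and 3.33% had such an unadjusted p. Among Hp, Hpx and Itih4 the 95% intervals after CCl4 stayed between -0.25 and 0.11. With 75th percentile scaling these differences turned positive, at 0.19 for Hp, 0.16 for Hpx and 0.19 for Itih4, and did not pass.

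**Figure D4:**
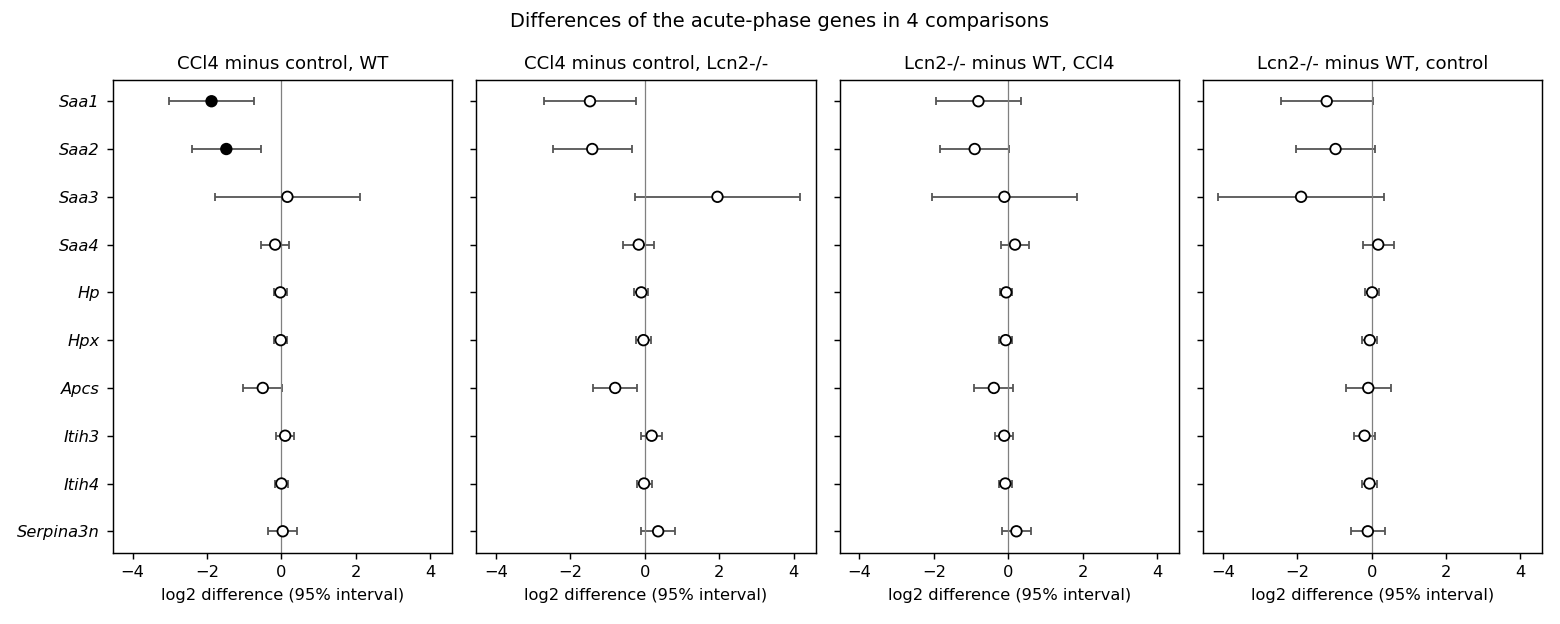
Log2 differences of the 10 members in 4 comparisons (horizontal axis, with 95% intervals from limma), filled where the adjusted p was under 0.05. Saa1 (-1.88) and Saa2 (-1.48) in the WT response are the filled points, and the Saa3 intervals are the widest.

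WT control 3, the array with the most Lcn2, was also the highest WT control for 7 of 10 members. Saa3 there was 4.21 above the mean of the other 3 WT controls, against 3.22 for Lcn2, 0.54 for Apcs, 0.39 for Saa1 and 0.36 for Saa2. Lcn2-/- control 3 was the highest Lcn2-/- control for 9 of 10 members, by 2.21 for Saa1, 2.03 for Saa3, 1.72 for Saa2 and 0.89 for Apcs over the mean of the other 2 arrays. Some leads over the next array were slight, as for Saa2 in WT (18.457 against 18.438) and Hp in Lcn2-/- (18.924 against 18.919). The share over all genes tested was not computed for either tally, so nothing particular to the members is read from the tallies. The control arrays numbered 3 also stood apart in the summed signal of markers of other cell types. The summed signal of 10 neutrophil markers was 45400 in WT control 3, against 11600 to 16200 in the other WT controls, and 62300 in Lcn2-/- control 3, against 10500 and 11600. That of 10 macrophage markers was 327000 and 329000 on these arrays, against 106000 to 146000 in the other controls. A linear sum follows its brightest markers, which for neutrophils were S100a9 and S100a8. On WT control 3 these measured 14.93 and 12.66, against WT control means, that array included, of 13.12 and 10.78. Ly6g and Elane measured 11.25 and 10.95 there, against means of 11.20 and 11.12. The hepatocyte sum was 2080000 in WT control 3, the lowest of the controls, and 2270000 in Lcn2-/- control 3. The other controls had hepatocyte sums of 2120000 to 2300000. The part of these markers in the Saa levels was not tested.

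The neutrophil sum was also high on the CCl4 arrays. WT CCl4 arrays had neutrophil sums of 39300 to 84300 and Lcn2-/- CCl4 arrays 27600 to 39800, all above the control arrays other than those numbered 3. Of the neutrophil markers, 6 of 10 rose in WT and 1 of 10 in Lcn2-/- livers, against 16.8% and 12.2% of all genes called in either direction. These counts are not a difference between genotypes. In each genotype 8 of 10 measured higher after CCl4, all but Ly6g and Elane. The interaction called 0 of 10 neutrophil markers, with 0 at an unadjusted p under 0.05. Of 10 macrophage markers 2 rose and 2 fell in WT, and 2 rose and 0 fell in Lcn2-/- livers. All 8 hepatocyte markers were without a call in the 5 contrasts.

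The relation of each member to Lcn2 was computed over the 9 WT arrays (8 for Saa1) on values centred within WT control and WT CCl4. Saa3 had the highest value, with Pearson r = 0.84 (exact permutation p 0.0194, adjusted 0.194) and Spearman rho = 0.82 (exact permutation p 0.0257, adjusted 0.257). Without WT control 3 and WT CCl4 2, the arrays farthest from the median Lcn2, r was 0.38. Leaving out extreme arrays also narrows the range of Lcn2, which can lower r by itself. How far the relation rests on those arrays is thus not settled. Leaving out 1 array at a time gave an r of 0.56 to 0.92 for Saa3, and none of these passed after adjustment. Saa1 had r = 0.48 and rho = 0.55, Saa2 r = 0.53 and rho = 0.60, Hpx r = 0.64 and rho = 0.55, and Itih4 r = -0.58 and rho = -0.54. Without the same 2 arrays r was 0.13 for Saa1, 0.3 for Saa2, 0.35 for Hpx and -0.38 for Itih4, and without WT CCl4 2 alone it was 0.27 for Saa1 and 0.31 for Saa2. With 75th percentile scaling the r of Hpx turned to -0.57, and r was 0.14 for Saa1 and 0.2 for Saa2, so no direction is read for these members. After adjustment over the 10 relations, 0 of 10 passed, and the smallest adjusted p was 0.194 for Pearson r. Without WT control 4, Saa2 passed with r = 0.52 (adjusted exact permutation p 0.0278).

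**Figure D5:**
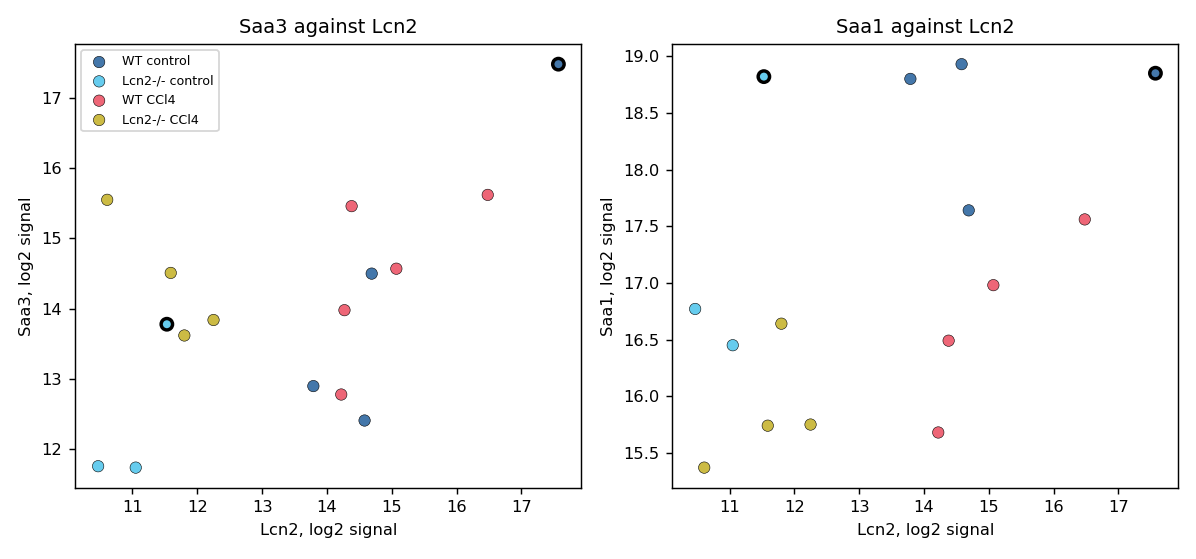
Saa3 (left) and Saa1 (right) against Lcn2 on each array, both in log2 signal, coloured by group, with heavy rings on WT control 3 and Lcn2-/- control 3. WT control 3 is the point at 17.57 for Lcn2 and 17.48 for Saa3, and Lcn2-/- control 3 has Saa1 of 18.82 beside Lcn2 of 11.53.

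Among the members, deviations from the group means gave r = 0.73 between Apcs and Itih3 and r = 0.63 between Apcs and Hp, next after Saa1 and Saa2, and r = 0.30 between Saa1 and Saa3. These are descriptions over 16 arrays, or 15 with Saa1, that share slides and the control arrays numbered 3. Of the genes tested that are not members, Cxcl5, the gene of a neutrophil-attracting chemokine, had the pattern most like Saa3 (r = 0.96), followed by Chil1, a chitinase-like protein gene (r = 0.94), and Gpr35 (r = 0.93). Saa1 and Saa2 were each the gene most like the other, and of the genes outside the members Adamdec1 was the most like Saa1 (r = 0.89, 15 arrays) and Ctla2a the most like Saa2 (r = 0.82). For the remaining 7 members the highest value lay between 0.86 and 0.94, each the highest over all genes tested outside the members, and no p is attached to it.

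Other acute-phase genes were read from lists of the same pathway. Of 22 other genes that rise in the acute phase, 1 rose and 3 fell in WT, and 1 rose and 0 fell in Lcn2-/- livers. These counts and those of the lists that follow stand against 16.8% and 12.2% of all genes called, and with so few genes a list nothing particular to a list is read from them. The genes that fell in WT were those of orosomucoid, a plasma carrier protein: Orm2 fell by 0.92 (limma adjusted p 0.00506), Orm1 fell by 0.78 (0.0118) and Orm3 fell by 2.38 (0.0159). Their Lcn2-/- responses were -0.46, -0.47 and -0.33 and did not pass. Probes of such near-identical copies, Hamp2 included, may share signal, which was not tested. The gene that rose was Hamp2, a relative of the hepcidin gene, by 3.1 in WT livers (limma adjusted p 0.000341) and by 3.9 in Lcn2-/- livers (0.000275). Median differences of this list were -0.074 in WT and 0.056 in Lcn2-/-, against -0.031 and -0.023 over all genes tested.

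Of 10 genes that fall in the acute phase, 2 rose and 0 fell in WT. Apoa4, an apolipoprotein gene, rose by 2.66 in WT livers (limma adjusted p 0.000586) and by 2.10 in Lcn2-/- livers (0.0105), and Serpina6, which encodes corticosteroid-binding globulin, rose by 0.70 in WT (0.0105). Ttr, the transthyretin gene, measured 0.10 in WT (limma adjusted p 0.438).

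Of the inducing ligands, 6 of 8 were bright enough to test and 0 passed, with 1 at an unadjusted p under 0.05 in WT and 0 in Lcn2-/-. Over all genes tested, 30.7% met that unadjusted p in WT livers and 27% in Lcn2-/- livers, and the unadjusted counts of the lists that follow stand against these shares. Il6 measured -0.28 in WT (limma adjusted p 0.798) and Il1b 0.27 (0.855). The Il6 signal lay near the floor, with a WT control mean of 5.69. It was well above background on 3 of 4 WT control, 5 of 5 WT CCl4, 0 of 3 Lcn2-/- control and 0 of 4 Lcn2-/- CCl4 arrays. A steady Il6 level is therefore not read from these values. Of 9 receptors and adaptors, 3 rose and 1 fell in WT, and 1 rose and 1 fell in Lcn2-/-. Lifr, the leukemia inhibitory factor receptor gene, fell by 1.38 in WT livers (limma adjusted p 0.000379) and fell by 0.79 in Lcn2-/- livers (0.0396), while Osmr, the oncostatin M receptor gene, rose by 1.3 (0.00147) and 0.87 (0.0436). Il6st, the gp130 gene that both of these receptors pair with, rose by 0.35 in WT (0.0301), and Tnfrsf1b, a tumor necrosis factor receptor gene, rose by 0.67 (0.0231).

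Of 8 transcription factors, 1 was called in WT livers and 0 in Lcn2-/- livers. Cebpd, the C/EBP delta gene, rose by 1.04 in WT livers (limma adjusted p 0.0387). In Lcn2-/- livers 1 of them had an unadjusted p under 0.05. Stat3 measured -0.38 in WT (limma adjusted p 0.32). Of 7 feedback inhibitors 0 passed in either genotype, with 2 and 1 at an unadjusted p under 0.05. Socs3, which curbs gp130 signalling, measured -1.19 in WT livers (limma adjusted p 0.0689) and -1.11 in Lcn2-/- livers (0.153).

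Among close relatives and partners of the members, Itih5 rose by 0.84 in WT livers (limma adjusted p 0.0389) and by 1.05 in Lcn2-/- livers (0.0317), 1 of 4 inter-alpha-trypsin inhibitor relatives. Of 8 Serpina3 relatives tested, Serpina3h fell by 0.77 in WT (limma adjusted p 0.0363), and 0 passed in Lcn2-/-, also with 0 at an unadjusted p under 0.05. Of 6 partners in hemoglobin and heme handling, Cd163, the scavenger receptor gene for haptoglobin bound to hemoglobin, was lower after CCl4 in WT livers (limma adjusted p 0.0156) and in Lcn2-/- livers (0.0288). It was well above background on 4 of 4 WT control, 1 of 5 WT CCl4, 1 of 3 Lcn2-/- control and 0 of 4 Lcn2-/- CCl4 arrays. No size is given for either genotype, because few arrays outside WT control were well above background. None of the genes in these 9 lists passed in the genotype comparisons or the interaction.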

How the data were processed

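Total liver RNA was copied by the authors into Cy3-labelled complementary RNA, per the labels' protocol, and hybridised to 1-colour Agilent mouse arrays and read with Agilent Feature Extraction 10.7.3.1, and per the file headers the deposited intensity values are linear spot signals, background-subtracted and detrended in the processed signal but not normalized between arrays. The software's flags for outlier, saturated and well-above-background spots, other values in the same files, were used as deposited. A further table by the authors holds log2 values, of which 99.8% were within 0.05 of the median signal minus its local background after quantile normalization, and it served as an alternative.

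The members and gene lists were chosen with earlier results of these data known. The log2 processed signal of 59305 gene spots was quantile normalized over 16 arrays, as the study's methods name, outlier-marked spots were then left out, and spots of 1 probe were averaged. Kept were the 33099 probes that 3 or more arrays showed well above background, and the brightest probe of each symbol was tested (24409 genes). Accessions were paired with symbols through RefSeq of GRCm38.p6, which matched 49.8% of gene spots, and the file's name was kept for the others. Probe positions are on mm9, with their place in the transcript not analysed here.

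Groups and replicate numbers came from the sample titles. One limma model (limma 3.58.1, R 4.3.3) over the 4 groups, with no term for slide or replicate number, gave 5 contrasts, each Benjamini-Hochberg adjusted over all genes, with an adjusted p under 0.05 as the call. The model was tested on simulated data. Named are all members and, per list, at most 4 genes with the smallest adjusted p, with a few others for their role, chosen after their values were seen. Same-numbered control arrays deviated from their group means together (r = 0.23, 0.37 and 0.55), but the labels state no pairing. A pairing of WT and Lcn2-/- controls was therefore fitted only as an alternative, and the 5 contrasts do not use it. Same-numbered arrays of the other comparisons had r from -0.22 to 0.25, and those groups were not taken as paired. The depth of an array is its signal over background, with a 75th percentile of 842 to 2067, and the number of arrays limits the precision. Alternatives changed the scaling, background correction, filter, probe choice, array weights, slide, replicate block, fit and arrays.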

Additional observations from a re-analysis of the deposited data

Results flagged for a closer look

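Of 30 groups of 4 or 5 arrays examined for the 10 members, 2 had an array set apart from the rest by Dixon's ratio of the gap to the range, a rule that chance meets in about 1 in 20 groups. Both were WT control 4, the lowest array of its group for the neighbouring genes Saa1 and Saa2. Saa1 measured 17.64 there against 18.80 for the next array, a ratio of 0.9, and Saa2 measured 17.48 against 18.37, a ratio of 0.906. Without WT control 4 the WT response was -2.19 for Saa1 (limma adjusted p 0.0201) and -1.72 for Saa2 (limma adjusted p 0.0265). As the 2 genes vary together, these count as 1 observation rather than 2.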

How the results depend on the processing

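Of the member counts, the WT count of 2 became 5 with 75th percentile scaling (where 21.1% of all genes were called), 1 with no filter on dim probes, 0 with slide as a block, 0 within slide 1 (where WT CCl4 1 is assumed to vary like the other groups), and 1 with a replicate block, whose numbers do not pair these groups. Leaving out 1 array gave 0 to 2. The Lcn2-/- count of 0 became 3 with 75th percentile scaling (Saa2, Hp and Apcs, with 13.3% of all genes called), 4 with array weights (Saa3, Apcs, Itih3 and Serpina3n, with 28.5% of all genes called) and 1 without both control arrays numbered 3 (15.1%), and leaving out 1 array gave 0 to 1. The genotype count in controls was 1 with array weights (Saa1, with 5.21% of all genes called) and 0 in all other alternatives, the replicate block over all arrays or over the control arrays alone included, while the genotype count under CCl4 and the interaction stayed at 0 in all those run, those leaving out 1 array included. The count related to Lcn2 was 0 to 1 when 1 WT array was left out and 0 otherwise. The sign of Itih4 turned to -0.51 in WT under 75th percentile scaling, where all genes moved to a median of -0.16, and Itih3 and Serpina3n also turned, to -0.39 and -0.18, without passing. Keeping outlier-marked spots, chosen after seeing the data, gave -1.98 for Saa1 on all 16 arrays (limma adjusted p 0.0130) and moved no count of members. Over all genes, the WT count of 4102 was 1304 with slide as a block and 7063 with array weights, and the Lcn2-/- count of 2975 was 425 and 6964.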
